A study of Homo sapiens with 3 samples.

Results

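The transcripts of 10 genes of the NF-kB machinery were followed in Caki-1, a cell line grown from a human renal carcinoma, after siRNA against RBCK1. The genes were CHUK, IKBKB and IKBKG, which encode the IKK complex, RELA, RELB, REL, NFKB1 and NFKB2, which encode the NF-kB subunits, and NFKBIA and NFKBIE, which encode the IkB proteins alpha and epsilon. They were chosen as a pathway by name, with earlier results of these data known. All 10 are among the 44591 genes of the deposited table. All 10 passed the filter of a mean of at least 1 RPKM (reads per kilobase of transcript, scaled to the reads of each library), as did 12403 genes in all.

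Cells received either a control siRNA, giving the si-Control library, or an siRNA against RBCK1, of which there were 2 (si-RBCK1 #1 and #2, written siRNA #1 and siRNA #2 below), and were harvested 48 h after transfection. RBCK1, also called HOIL-1 in the sample titles, was the only gene targeted, and no NF-kB stimulus is named in the sources used here. Each condition had a single library, which makes 3 libraries from 1 cell line. No difference below therefore has a replicate check, no p-value was computed, and both siRNA comparisons share the si-Control library.

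NF-kB is a family of dimeric transcription factors that IkB proteins hold in the cytoplasm. The IKK complex phosphorylates IkB, an SCF ubiquitin ligase marks it for destruction, and the released dimers enter the nucleus, where they raise transcripts of cytokines, survival genes and several of their own regulators. NFKBIA is the best known of these feedback genes. RBCK1 joins RNF31 and SHARPIN in the linear ubiquitin chain assembly complex, whose chains on IKBKG and other proteins help activate IKK. In the alternative arm of the pathway the kinase MAP3K14 acts through CHUK on the NFKB2 precursor, whose product pairs with RELB.

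The siRNA sequences and the promoter sites of the members are given first. The sense strands of both siRNAs are shown 5′ to 3′ with bases 12 to 18 in capitals, the target-strand match to guide bases 2 to 8 (the seed).
siRBCK1 #1: ggtgcaccttcATCAACAa
siRBCK1 #2: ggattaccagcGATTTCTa
Both 19-base sequences occur in the longest protein-coding RBCK1 transcript of GENCODE v29, and 0 of the 10 members hold either in full in theirs. The capitalised 7 bases of siRBCK1 #1 occur in 1 of the 10 members, NFKB1, against 22.3% of 19669 protein-coding genes. Those of siRBCK1 #2 occur in 4 members, IKBKB, REL, NFKB1 and NFKB2, against 25.9% of genes. NFKB1 is thus the member with a seed match to both siRNAs, as are 8.06% of all genes searched. Both matches lie in its coding sequence, and the NFKB1 stretches aligned with the siRNAs are given next, capitals again marking the matched 7 bases.
NFKB1 at siRBCK1 #1: ctgatgacattATCAACAt
NFKB1 at siRBCK1 #2: acatctggtttGATTTCTg
Each stretch has the same base as its siRNA at 9 of 19 bases. Of these, 7 are the seed match by which the stretch was found, and only 2 of the first 11 bases match. Over all genes tested with a transcript in GENCODE, the median log2 ratio with siRNA #1 was -0.04 for 2514 genes with its seed match and 0.05 for 8054 genes without. With siRNA #2 it was -0.03 for 3087 genes with the match and 0.08 for 7481 without. The part of seed matches in the NFKB1 values below was not tested.

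NF-kB dimers bind the kappa B motif, and promoters of several members hold it. The consensus of 10 bases (3 G at the start, 2 C at the end) was searched on both strands from 250 bases before to 50 bases after each RefSeq start site (GRCh38.p14). It occurred in 5.91% of 35116 such promoters and in 5 of the 14 windows of the 7 members that have one. By gene, it occurred in at least 1 window of 7.09% of 27305 genes. Among the 7 members it did so in 4, REL, NFKB1, NFKB2 and NFKBIA. The 7 members had 1 to 4 windows each, and a gene with more windows has more room for a match. The matches are shown in 30-base stretches on the strand of the gene, with the motif in capitals, overlapping matches merged.
REL (chr2:60881518-60881547, plus strand): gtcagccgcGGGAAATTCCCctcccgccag
NFKB1 (chr4:102501300-102501329, plus strand): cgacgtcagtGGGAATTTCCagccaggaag
NFKB2 (chr10:102394462-102394491, plus strand): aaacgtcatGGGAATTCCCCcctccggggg
NFKB2 (chr10:102394490-102394519, plus strand): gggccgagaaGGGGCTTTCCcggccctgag
NFKB2 (chr10:102395519-102395548, plus strand): aacccccaccGGGGCTTCCCggattctcct
NFKB2 (chr10:102395674-102395703, plus strand): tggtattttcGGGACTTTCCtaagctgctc
NFKBIA (chr14:35404811-35404840, minus strand): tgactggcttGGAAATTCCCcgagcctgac
The motif begins 47 bases before the start site in REL, 49 in NFKB1 and 81 in NFKBIA. In NFKB2 it begins 107 and 78 bases before 1 start site and 176 and 21 bases before another. No match was found in the windows of CHUK, IKBKG and RELA, and RELB, NFKBIE and IKBKB had no entry. A match is a run of letters, and binding was not measured.

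The RPKM values were scaled on 36926834 reads in the si-Control library, 40442939 with siRNA #1 and 36344428 with siRNA #2. For each member, whole numbers of reads were recovered from its 3 RPKM values, and the exact 95% counting intervals below rest on the smallest such reads, from 360 to 5478 per member and library. They cover counting error only, not differences between cultures. RBCK1 itself was at 33.3 RPKM in si-Control, 9.97 RPKM with siRNA #1 and 12.3 RPKM with siRNA #2, which is 29.9% and 36.8% of control. Of 11 markers of renal epithelium and clear cell carcinoma lines, 6 had a mean of at least 1 RPKM, among them PAX8 at 82.5 to 124 RPKM, whereas CA9, PAX2, EPCAM, LHX1 and KRT19 did not. The summed level of this list was 1039.8 RPKM in si-Control and 2001 and 2009 RPKM with the siRNAs, most of it VIM, and the part of this difference in the results below was not tested. The 5 leukocyte markers summed to 0.0917 to 0.361 RPKM and the 4 endothelial markers to 0.0522 to 0.0635 RPKM. The 5 fibroblast markers summed to 4.15 to 5.72 RPKM, with only COL1A1 at a mean of at least 1 RPKM.

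Of the 10 members, 0 were at least 2-fold higher or lower than si-Control with either siRNA on the log2(RPKM + 1) scale. Of all genes tested, 6.18% reached 2-fold with siRNA #1 (2.91% higher and 3.27% lower) and 4.76% with siRNA #2 (2.5% higher and 2.27% lower). At 1.5-fold, NFKB1 was lower with both siRNAs and NFKBIA and NFKBIE were higher with siRNA #1, 3 of 10 members against 23.7% of all genes. With siRNA #2 the count at 1.5-fold was 1 of 10, NFKB1, against 20.6% of all genes. These shares do not set the members apart from the background. In RNA from whole cultures, fewer cells of a kind and less RNA per cell cannot be told apart. The median log2 ratio of the members was 0.04 with siRNA #1 and -0.08 with siRNA #2, beside 0.02 and 0.03 over all genes tested. The median size of their log2 ratio, sign aside, was 0.17 and 0.22, beside 0.32 and 0.30 over all genes.

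The log2 ratios of the IKK transcripts, without a pseudocount, lay between -0.28 and -0.01. CHUK (hg19 chr10:101948055-101989367), which encodes the kinase IKK alpha, was at 9.92 RPKM in si-Control, 9.40 RPKM with siRNA #1 and 9.62 RPKM with siRNA #2. Its log2 ratios of RPKM without a pseudocount were -0.08 (95% counting interval -0.23 to 0.08) and -0.04 (-0.20 to 0.12). Both intervals hold 0. They rest on the smallest reads, at a length of 1808 nt against 6928 exonic nt of CHUK in GENCODE v29. True reads can be larger and the intervals narrower. An antisense gene that overlaps CHUK was at 0.0428 to 0.762 RPKM.

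IKBKB, which encodes IKK beta, the kinase of the canonical arm, was at 10.6 RPKM in si-Control, 8.99 RPKM with siRNA #1 and 9.17 RPKM with siRNA #2. Both siRNA libraries were lower, at 84.9% and 86.7% of control. The log2 ratios without a pseudocount were -0.24 (-0.34 to -0.13) and -0.21 (-0.31 to -0.10), past counting error. Even so, 31.6% of all genes tested were as low or lower with siRNA #1 and 30.2% with siRNA #2 on the log2(RPKM + 1) scale. CHUK and IKBKB were at like levels per length in every library, with ratios of 0.937 (0.855 to 1.03), 1.05 (0.954 to 1.14) and 1.05 (0.953 to 1.15).

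IKBKG (hg19 chrX:153770455-153793261) encodes NEMO, the regulatory subunit that binds ubiquitin chains. It was at 4.44 RPKM in si-Control, 4.40 RPKM with siRNA #1 and 3.65 RPKM with siRNA #2. The log2 ratio without a pseudocount was -0.01 (-0.20 to 0.18) with siRNA #1 and -0.28 (-0.49 to -0.08) with siRNA #2. These values are uncertain, since IKBKG has a near-identical pseudogene, IKBKGP1, at 1.44 to 1.85 RPKM.

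Among the subunits, NFKB1 differed most from control with both siRNAs. NFKB1 (hg19 chr4:103422486-103538459) encodes p105, the precursor of p50, which is the usual partner of RELA. It was at 27.7 RPKM in si-Control, 16.6 RPKM with siRNA #1 and 13.9 RPKM with siRNA #2, with recovered reads of 4460, 2931 and 2193. Both siRNA libraries were well below control, at 60.0% and 49.96% of it. On the log2(RPKM + 1) scale the ratios were -0.70 and -0.95. Without the pseudocount they were -0.74 (-0.80 to -0.67) and -1.0012 (-1.08 to -0.93), the latter just past 2-fold. Of all genes tested, 8.10% were as low or lower with siRNA #1 and 2.65% with siRNA #2. In both libraries at once, 258 genes (2.08%) were as low or lower.

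Because some rows of the table hold entries that do not give their own fold change (16 of 12377 tested genes with a comparison), the NFKB1 row was checked before use. Its library values give the log2 fold change listed in the same row within 1e-06, as do those of the other 9 members. They also give whole reads at a length of 4355 nt, and the reads share no divisor above 1. Had every value been multiplied by 2 or more, the length would have to be at least 8710 nt, against 6257 exonic nt of NFKB1 in GENCODE v29. That exonic length is no firm limit, since TRAF6, named here for that, needs at least 8021 nt against 4871 exonic nt. The length therefore cannot exclude such a multiple. The listed values were used because they give their own row's fold change. A long noncoding RNA that overlaps NFKB1 on the other strand was at 0 to 0.177 RPKM.

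NFKB2 (hg19 chr10:104153867-104162286), the paralogue that encodes p100 and its product p52, did not follow NFKB1 with siRNA #1. It was at 34.5 RPKM in si-Control, 34.9 RPKM with siRNA #1 and 28.1 RPKM with siRNA #2. Its log2 ratios without a pseudocount were 0.02 (-0.04 to 0.07) and -0.30 (-0.36 to -0.24), so that only the siRNA #2 library was lower, at 81.4% of control. The ratio of NFKB1 to NFKB2 within a library, which does not depend on the scaling between libraries, was 0.804 (0.772 to 0.838) in si-Control, 0.477 (0.456 to 0.499) with siRNA #1 and 0.494 (0.468 to 0.520) with siRNA #2. The siRNA libraries overlapped each other in this ratio and neither interval reached that of si-Control.

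RELA (hg19 chr11:65421067-65430443), the main activating subunit of the canonical arm, was at 43.5 RPKM in si-Control, 48.3 RPKM with siRNA #1 and 49.7 RPKM with siRNA #2. It was slightly higher with both siRNAs, at 111% and 114% of control, with log2 ratios without a pseudocount of 0.15 (0.09 to 0.21) and 0.19 (0.13 to 0.25). REL (hg19 chr2:61108630-61155306), a subunit best known in lymphocytes, was the lowest member, at 1.74, 2.13 and 2.16 RPKM in the same order. Its log2 ratios without a pseudocount were 0.29 (0.12 to 0.46) and 0.31 (0.14 to 0.48), which is also above control in both libraries. On the log2(RPKM + 1) scale, 39.0% and 36.7% of all genes tested were as high as RELA or higher. For REL these shares were 35.7% and 35.2%. RELB (hg19 chr19:45504707-45541456), the partner of p52, was at 18.4, 19.3 and 16.9 RPKM. Its sign differed between the siRNAs, with 0.07 (-0.03 to 0.17) and -0.12 (-0.23 to -0.02).

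The make-up of the subunit transcripts shifted accordingly. NFKB1 made up 22.0% of the summed RPKM of the 5 subunits in si-Control, 13.7% with siRNA #1 and 12.5% with siRNA #2. RELA made up 34.6%, 39.8% and 44.9%. The sum itself was 126, 121 and 111 RPKM, so the larger RELA share went with a smaller sum. NFKB1 was at 0.638 (0.611 to 0.665) of RELA in si-Control, 0.344 (0.329 to 0.360) with siRNA #1 and 0.279 (0.265 to 0.293) with siRNA #2.

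Both IkB transcripts were higher than control, and more so with siRNA #1. NFKBIA (hg19 chr14:35870716-35873960) was at 47.4 RPKM in si-Control, 78.6 RPKM with siRNA #1 and 56.9 RPKM with siRNA #2. It was the highest member in each library, and stood at 166% and 120% of control with the siRNAs. Its log2 ratios without a pseudocount were 0.73 (0.66 to 0.80) and 0.26 (0.19 to 0.34). On the log2(RPKM + 1) scale, 7.63% of all genes tested were as high or higher with siRNA #1, and 30.7% with siRNA #2.

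NFKBIE (hg19 chr6:44225903-44233525) was at 6.49 RPKM in si-Control, 11.8 RPKM with siRNA #1 and 9.13 RPKM with siRNA #2, or 181% and 141% of control. Its log2 ratios without a pseudocount were 0.86 (0.72 to 1.00) and 0.49 (0.34 to 0.64), both above 0 and apart from each other. Set among all genes tested, 6.33% were as high or higher with siRNA #1 and 18.6% with siRNA #2. NFKBIB, which encodes IkB beta and is no member, went the other way, with 16.7 RPKM in si-Control and 13.1 and 14.2 RPKM with the siRNAs.

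The summed RPKM of NFKBIA and NFKBIE was 0.428 of the summed RPKM of the subunits in si-Control, 0.745 with siRNA #1 and 0.596 with siRNA #2. NFKBIA was at 1.09 (1.04 to 1.14) of RELA in si-Control, 1.63 (1.56 to 1.69) with siRNA #1 and 1.14 (1.09 to 1.20) with siRNA #2. With siRNA #2 this interval overlapped that of si-Control. The ratio of NFKBIA to NFKB1 was 1.71 (1.63 to 1.79) in si-Control, 4.72 (4.51 to 4.95) with siRNA #1 and 4.10 (3.89 to 4.34) with siRNA #2. Here both siRNA libraries were far above control, and NFKBIA and NFKB1 differed from control in opposite directions. Each of these 2 genes has 1 kappa B match in its promoter windows, and the part of these matches was not tested.

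In order of level per length, si-Control ran NFKBIA, RELA, NFKB2, NFKB1, RELB, IKBKB, CHUK, NFKBIE, IKBKG and REL. Only IKBKB and CHUK were neighbours whose 95% counting intervals overlapped, there and with siRNA #1. With both siRNAs NFKB1 stood below RELB. NFKBIE stood above CHUK and IKBKB with siRNA #1, and its interval overlapped that of IKBKB with siRNA #2, where CHUK and IKBKB also overlapped.

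The siRNA libraries were also compared with each other, without si-Control. In 6 of 10 members, IKBKG, RELB, NFKB1, NFKB2, NFKBIA and NFKBIE, the siRNA #2 library was lower past counting error, as in 29.1% of 12360 genes tested with recovered reads, while 33.4% of these were higher. The log2 ratio of #2 to #1 was -0.26 (-0.34 to -0.18) for NFKB1, -0.31 (-0.37 to -0.25) for NFKB2 and -0.47 (-0.53 to -0.40) for NFKBIA. The intervals of CHUK, IKBKB, RELA and REL held 0, and 0 members were higher with siRNA #2.

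The 5 genes nearest to NFKB1 by their pair of log2 ratios, over the 12403 genes tested, were INPP4B, NEK1, ENSG00000270189.1, PDGFC and SARS, at distances of 0.0086 to 0.035. PDGFC, for example, was at 32.0 RPKM in si-Control and 19.7 and 15.9 RPKM with the siRNAs. In all 27 genes lay within 0.1 of NFKB1, and the likeness rests on 2 ratios that share a control.

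Around the members, 42 other pathway genes were all above the filter. On the log2(RPKM + 1) scale 1 of these was at least 2-fold lower with either siRNA, RBCK1 itself, and 0 were at least 2-fold higher. Without the pseudocount, which was tried after the values were seen, NFKBID also passed 2-fold with siRNA #1, at 223% of control, as did TAB2 and TRAF1 with siRNA #2, at 49.7% and 48.4% (all named here after their values were seen). The median log2 ratio was 0.07 with siRNA #1 and 0.05 with siRNA #2, beside 0.02 and 0.03 over all genes. At 1.5-fold on the log2(RPKM + 1) scale, 9 genes (21.4%) passed with siRNA #1 and 5 (11.9%) with siRNA #2, at or below the shares of all genes.

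RBCK1's partners in the linear ubiquitin ligase had log2 ratios between -0.20 and 0.29 on the log2(RPKM + 1) scale. RNF31, the catalytic subunit, was at 5.61 RPKM in si-Control, 6.80 RPKM with siRNA #1 and 7.11 RPKM with siRNA #2. SHARPIN was at 19.8, 18.1 and 17.0 RPKM. CYLD, a deubiquitinase that removes linear chains, was at 8.67, 6.75 and 6.98 RPKM, log2 ratios of -0.32 and -0.28 on the log2(RPKM + 1) scale.

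MAP3K14 encodes NIK, the kinase that drives the alternative arm through CHUK. It was at 8.66 RPKM in si-Control, 16.5 RPKM with siRNA #1 and 16.3 RPKM with siRNA #2. Both libraries were near 190% and 188% of control, log2 ratios on the log2(RPKM + 1) scale of 0.86 and 0.84. Of all genes tested, 23.7% with siRNA #1 and 20.6% with siRNA #2 differed at least 1.5-fold in either direction. For CHUK both counting intervals, on the smallest reads, included no change. IKBKE, an IKK-related kinase, was at 9.02, 11.97 and 11.5 RPKM, and TBK1, its close relative, at 15.2, 16.2 and 15.5 RPKM. TAB2, an adaptor of the kinase that activates IKK and named here after its values were seen, was lower in both siRNA libraries, at 43.0 RPKM in si-Control and 22.4 and 21.4 RPKM.

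Among the atypical IkB proteins, NFKBIZ, a nuclear IkB, was at 72.8 RPKM in si-Control and 87.3 and 82.7 RPKM with the siRNAs. BCL3, which binds p50 and p52 in the nucleus, was at 16.8, 15.5 and 17.6 RPKM. NFKBID, named here after its values were seen, was low throughout, at 0.943, 2.10 and 1.48 RPKM, log2 ratios of 0.68 and 0.35 on the log2(RPKM + 1) scale. TNFAIP3 encodes A20, a feedback inhibitor upstream of IKK, and was at 3.73 RPKM in si-Control, 6.55 RPKM with siRNA #1 and 3.72 RPKM with siRNA #2. Like NFKBIA it was higher with siRNA #1, at a log2 ratio of 0.68 on the log2(RPKM + 1) scale, but with siRNA #2 it was at control level, at -0.00.

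Transcripts that NF-kB raises in many cell types were mostly below control. Of 37 listed targets 32 passed the filter, and 23 of these had a log2 ratio below 0 with each siRNA, beside 48.4% of all genes tested with siRNA #1 and 46.4% with siRNA #2. At the 2-fold limit on the log2(RPKM + 1) scale, 7 of the 32 were lower and 2 higher with siRNA #1, beside 3.27% and 2.91% of all genes. With siRNA #2, 13 were lower and 1 higher, beside 2.27% and 2.5%. Without the pseudocount the counts were again 7 and 2 with siRNA #1, and 15 and 2 with siRNA #2, where TRAF1, PTGS2 (named after its values were seen) and CD83 also passed. The median log2 ratio was -0.29 and -0.56, beside 0.02 and 0.03 over all genes tested. For IL6, IER3 and CCND1 the listed values do not give their own row's fold change (IER3 is named here for that, after its values were seen). Without these 3 genes, 5 of 29 were lower and 1 higher with siRNA #1 on the log2(RPKM + 1) scale, and 11 lower and 0 higher with siRNA #2, or 13 lower and 1 higher without the pseudocount. The list was chosen with earlier results of these data known, so that its direction is not independent evidence. It shares 7 genes with the pathway list, 16.7% of that list and 18.9% of the targets.

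The named targets that were lower are given with their values. CXCL8, the neutrophil chemokine, was at 3383 RPKM in si-Control, 1070.2 RPKM with siRNA #1 and 667 RPKM with siRNA #2. CXCL2, a related chemokine, was at 779.7, 509 and 266 RPKM, and CSF2, a growth factor of myeloid cells, at 403, 213 and 115 RPKM. All were lowest with siRNA #2. LCN2, a siderophore-binding protein known from injured tubules, was instead lowest with siRNA #1, at 143, 23.8 and 52.9 RPKM. PTX3, a soluble pattern recognition protein, was at 198, 60.3 and 54.8 RPKM.

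SOD2, the mitochondrial superoxide dismutase, was at 418 RPKM in si-Control and 202 and 156 RPKM with the siRNAs. IRF1, an interferon-responsive transcription factor, was at 39.7, 17.4 and 14.2 RPKM. IL6 was listed at 805, 204 and 163 RPKM, values that do not give its own fold change. Against this direction, CD83, a surface protein of activated immune cells, was at 1.32, 3.86 and 3.14 RPKM, and CCND1, the G1 cyclin, was listed at 39.2, 98.5 and 88.9 RPKM, with the same doubt as for IL6.

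The feedback regulators among the targets had no shared direction, with 4 above 0 with siRNA #1 and 3 with siRNA #2. The median log2 ratio of these 7 genes was 0.26 for siRNA #1 and -0.00 for siRNA #2, and 0 of them reached 2-fold with either on the log2(RPKM + 1) scale (without the pseudocount TRAF1 did with siRNA #2). For the 9 chemokines and cytokines above the filter the medians were -0.61 and -1.32, and 2 and 7 of them were at least 2-fold lower on that scale. The 7 survival and stress genes above the filter had medians of -0.57 and -0.91. The 9 surface, matrix and other targets had -0.27 and 0.03, with 4 and 5 of them above 0. NFKBIA and NFKBIE, themselves feedback genes, were above control in the same libraries in which CXCL8 was at 31.6% and 19.7% of it. A kappa B match stood in at least 1 promoter window of 20 of the 31 targets that have one (64.5%), of 11 of 38 pathway genes (28.9%) and of 7.09% of all 27305 genes. The targets were listed as genes that NF-kB raises, so their share is not independent of how they were picked.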

How the data were processed

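The authors removed ribosomal RNA, made directional paired-end libraries and deposited 1 RPKM value per gene and library. The submitters' processing notes name FastQC, Trimmomatic, TopHat2, HTSeq and the hg19 build, and the strand setting of the counting is not given in the sources used here. The authors' comparison columns, also deposited, hold pooled control and treated values with log2 fold changes, p-values and q-values. The deposited log2 fold change served only to check rows (within 1e-06), and no such column is reported. There were 0 further columns of samples.

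The members and gene lists were chosen with earlier results of these data known. Ratios were taken on log2(RPKM + 1), which understates changes of low genes, and genes had to average 1 RPKM or more over the 3 libraries. The entry of 1 gene was not a number and was left out. With 1 library per condition no test was run, and a gene counted as altered at 2-fold (or 1.5-fold). Library totals were the most frequent value given by RNAs of up to 200 nt at 1 read. Reads were the smallest whole numbers (within 0.001) that a length of up to 50000 nt gives, so true reads can be larger and intervals narrower. Intervals were exact Clopper-Pearson (ratios) and Poisson (levels), at 95%. Promoters came from RefSeq, transcripts from GENCODE v29, siRNAs from the study's supplement. Named genes were the members, RBCK1, list genes at least 2-fold from control in either library (up to 8 per list and direction), 10 genes with a direct role beside the members, and the 5 genes nearest to NFKB1. Alternatives were other pseudocounts, scalings, filters and limits. The recovery of reads, the log2 ratios and the 2-fold call were tested on simulated data, and the other steps were not. The software was Python 3.11.15 with scipy 1.17.1, pandas 2.3.3, numpy 2.4.6 and, for figures, matplotlib 3.10.9. A value that bears on IKBKG is not reported here.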

Additional observations from a re-analysis of the deposited data

How the results depend on the processing

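Of 100 member ratios under other pseudocounts, scalings and recovered reads, 1 turned its sign, NFKB2 with siRNA #1, from 0.02 to -0.04 at equal totals. With a pseudocount of 5 RPKM NFKB1 was at -0.60 and -0.80 and NFKBIE with siRNA #1 at 0.54. The count of members at least 2-fold from control, 0 with each siRNA, became 1 with siRNA #2 on recovered reads without a pseudocount (NFKB1, an alternative chosen after seeing the data), and 3 and 1 at 1.5-fold. Over all genes, 766 with siRNA #1 and 591 with siRNA #2 reached 2-fold. These became 2934 and 2556 at 1.5-fold, 1346 and 1085 with a pseudocount of 0.1 RPKM, 219 and 198 with 5 RPKM, and 455 and 391 at a mean of at least 5 RPKM, where fewer genes were tested. The pathway median with siRNA #2 went from 0.05 to -0.00 at equal medians, and the members' median with siRNA #1 from 0.04 to -0.01 at equal totals. The target medians stayed below 0 in every setting run, from -0.35 to -0.25 with siRNA #1 and from -0.78 to -0.38 with siRNA #2. No paired analysis was possible because with 1 library a condition no test was run. The counting intervals of CHUK, IKBKG and REL were the widest. They rest on the smallest reads that the RPKM values allow, so the widths cannot show how far depth limits these members.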
